A study of Mus musculus with 15 samples.

Results

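The 10 genes Reln, Nav2, Raph1, Rdh12, Chst1, Rnf150, Copz2, Prlr, Myo1d and Fstl3 were selected on measured values. They were picked because they were low in every DMSO-treated Eμ-TCL1;p53R172H/+ leukemia, with no stated cut-off. All 10 were listed in both deposited expression tables, among 16470 genes for DMSO and 16428 genes for ibrutinib. The genotype difference in DMSO is therefore what chose them and is given as a description, and these 10 genes were tested only in the ibrutinib libraries.

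Eμ-TCL1 mice carry the TCL1 oncogene under a B-cell enhancer and develop a leukemia that models chronic lymphocytic leukemia. Eμ-TCL1;p53R172H/+ mice carry in addition 1 germline Trp53 allele with the R172H missense mutation in the DNA-binding domain, so that the mutation is not limited to B-cells. Both lines were on the C57Bl/6 background, and the age at collection is not given in the sources used here. Lymphocytes were freed mechanically from leukemic spleens, cultured for 24 h with DMSO vehicle or with 5 μM ibrutinib, an inhibitor of the B-cell receptor kinase Btk, and taken for RNA sequencing. The DMSO libraries were Eμ-TCL1 replicates 2, 3 and 4 and Eμ-TCL1;p53R172H/+ replicates 1 to 5. The ibrutinib libraries were Eμ-TCL1 replicates 1, 3 and 4 and Eμ-TCL1;p53R172H/+ replicates 1, 3, 4 and 5. The labels do not say which libraries came from separate mice, so p-values measure only the spread between these libraries.

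p53 is a transcription factor that is stabilized by DNA damage and other stress and activates genes for cell-cycle arrest, DNA repair and apoptosis. R172H disables binding to most of its target sites, and the mutant protein can also impair the remaining wild-type protein. The 10 genes are not classical members of that program. They encode secreted and receptor proteins (Reln, Fstl3, Prlr), proteins of the cytoskeleton and cell motility (Nav2, Raph1, Myo1d), and enzymes or trafficking proteins (Rdh12, Chst1, Copz2, Rnf150), and several are best known outside the lymphoid lineage.

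Promoter sequence was examined because a mutated DNA-binding protein separates the genotypes. That the 10 genes are low together in the mutants in DMSO follows from how they were chosen. RefSeq promoter windows (GRCm38.p6, 250 bases before to 50 after the transcription start) were found for 8 of the 10 genes, all but Rnf150 and Myo1d. The 10-base p53 half-site consensus matched in 2 of these 8, Reln and Fstl3, and in at least 1 window of 9.55% of 27025 genes (both strands searched). The bases upstream of Reln (chr5:22344706-22344955, minus strand) and of Fstl3 (chr10:79777024-79777273, plus strand) are shown with the half-site in capitals, 123 and 226 bases before the start respectively. Chst1 (chr2:92600867-92601116, plus strand) is shown as a member without a match.
Reln: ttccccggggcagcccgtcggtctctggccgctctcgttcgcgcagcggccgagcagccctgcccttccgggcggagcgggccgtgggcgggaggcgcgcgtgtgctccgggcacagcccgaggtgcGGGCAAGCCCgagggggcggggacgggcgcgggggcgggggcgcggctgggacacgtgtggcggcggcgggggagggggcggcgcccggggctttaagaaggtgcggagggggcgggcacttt
Fstl3: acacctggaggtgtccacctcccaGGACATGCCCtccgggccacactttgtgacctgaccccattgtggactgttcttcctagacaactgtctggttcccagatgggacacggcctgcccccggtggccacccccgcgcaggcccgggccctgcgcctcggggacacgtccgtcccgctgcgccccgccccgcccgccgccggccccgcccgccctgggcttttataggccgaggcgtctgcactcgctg
Chst1: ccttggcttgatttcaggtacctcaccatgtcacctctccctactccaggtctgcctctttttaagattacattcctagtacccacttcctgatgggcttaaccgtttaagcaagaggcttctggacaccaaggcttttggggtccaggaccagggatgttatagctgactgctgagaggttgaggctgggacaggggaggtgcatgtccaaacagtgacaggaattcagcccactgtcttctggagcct
The 3 sequences differ in composition. CG dinucleotides numbered 47 in the 300-base window of Reln, 25 in that of Fstl3 and 1 in that of Chst1. At least 20 were present in a window of 5 of the 8 genes (Copz2, Fstl3, Nav2, Raph1 and Reln), against 28.8% of all genes. The E-box CANNTG was present in 6 of 8 genes (75.0% of all genes), an NF-κB-type element in 5 (53.5%), CCAAT in 3 (41.1%) and TATAAA in 1, Fstl3 (15.7%). A match is only a run of letters, and neither p53 binding nor promoter methylation was measured here.

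The libraries differed in cell content as well as genotype. Summed over 12 B-cell markers such as Cd79a and Cd79b, the level was 331.8 and 320 in Eμ-TCL1;p53R172H/+ replicates 1 and 2 in DMSO, against 3957.2 to 4577.8 in replicates 3 to 5. In these 2 libraries 12 T-cell markers summed to 3114.7 and 3903.4, against 277.4 to 322.1 in the other three. Eμ-TCL1 replicate 2 in DMSO was also poor in B-cell markers, at 627.1 against 6536.2 and 4909 in replicates 3 and 4, and held 11 myeloid markers at 33144 (Lyz2 7931.4) and 10 erythroid markers at 18113.6. In ibrutinib the B-cell markers were lowest in Eμ-TCL1;p53R172H/+ replicates 1 and 3 (86.8 and 600.8) and in Eμ-TCL1 replicate 1 (507.7), which had the same myeloid excess (24737.9). The T-cell-rich pair also held NK-cell markers at 538.5 and 618.5, against at most 51.8 in the other DMSO libraries, with the defining Ncr1 at most 0.9. T-cell markers separated the genotypes in ibrutinib, at 675.1 to 2050.8 in the mutants and 219.8 to 659.2 in Eμ-TCL1. The sum of the stromal and endothelial list, mostly Pecam1, was lower in the mutants without overlap in DMSO (77.0 to 122.5 against 126.7 to 198.3). In ibrutinib it touched (53.3 to 114.8 against 114.2 to 185.9). Pecam1 itself overlapped in DMSO (74.8 to 110.2 against 85.2 to 193.2), as did Cdh5, Kdr, Vwf and Col1a1. The remaining marker, Pdgfrb, did not (0.1 to 0.4 against 1.2 to 6.6). Plasma-cell markers ranged from 88.4 to 343.2 in the mutants and from 265.1 to 623.0 in Eμ-TCL1 in DMSO. Of that list only Igj did not overlap in DMSO (3.5 to 61.5 against 70.4 to 287.6), whereas Sdc1, Xbp1, Prdm1 and Tnfrsf17 did. In ibrutinib Igj overlapped too (7.3 to 184.1 against 60.6 to 183.3). Myeloid Itgam (1.2 to 10.1 against 18.1 to 821.4) and Adgre1 (2.1 to 15.6 against 26.7 to 213.5) did not overlap in DMSO. Nor did the B-cell marker Fcer2a (0.4 to 4.4 against 7.6 to 30.5), whereas the rest of both lists overlapped. In ibrutinib Fcer2a (0.1 to 1.4 against 2.3 to 5.2) and Btk (1.4 to 44.0 against 44.4 to 89.1) did not overlap, whereas Itgam and Adgre1 did. Dendritic-cell markers reached at most 99.2. Every Eμ-TCL1 library had high Xist and no Y-linked Ddx3y, and the mutant libraries were of both kinds, so that sex and genotype cannot be fully told apart. Eμ-TCL1;p53R172H/+ replicate 3 had Xist in DMSO and Y-linked transcripts in ibrutinib, so that number does not join 1 mouse across treatments. Whether the other shared numbers do is not given by the labels. Trp53 itself ranged from 26 to 52.3 in Eμ-TCL1 and from 52.1 to 67 in Eμ-TCL1;p53R172H/+ in DMSO, and the table does not separate its alleles.

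Levels are given in normalized CPM (read counts scaled to library size) as deposited, rounded to 0.1 and scaled separately for each treatment, so levels in DMSO and ibrutinib are set side by side without a test. In DMSO, 31 of the 50 values of the 10 genes in Eμ-TCL1;p53R172H/+ were at or under 0.5 and 11 were listed at 0, whereas none of the 30 values in Eμ-TCL1 was at or under 0.5. The description as nearly silent held in DMSO for 8 genes, which stayed at or under 2.5 in every Eμ-TCL1;p53R172H/+ library. In ibrutinib 6 of the 10 stayed under that bound or at it. The share of all genes at or under 2.5 was not counted. Within the 8 in DMSO, Reln, Chst1, Copz2 and Prlr stayed at or under 0.5, as did 1511 of all 16470 genes. For Copz2, Prlr and Fstl3 the bound of 2.5 does not mark the mutants. Their highest Eμ-TCL1 values in DMSO were 1.6, 2.3 and 2.4. The description did not hold for Rdh12 and Myo1d, which were low only relative to Eμ-TCL1. Their mean levels in Eμ-TCL1;p53R172H/+ stood at percentiles 39.3 and 39.8 of all genes in the table. Those of Nav2 and Raph1, which are among the 8, stood at 22.7 and 25.2. All 10 genes were lower without overlap in DMSO, the contrast that chose them, where 2.93% of all genes were. Adjusted p-values under 0.05 were reached by 0.0121% of genes in that table.

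**Figure D1:**
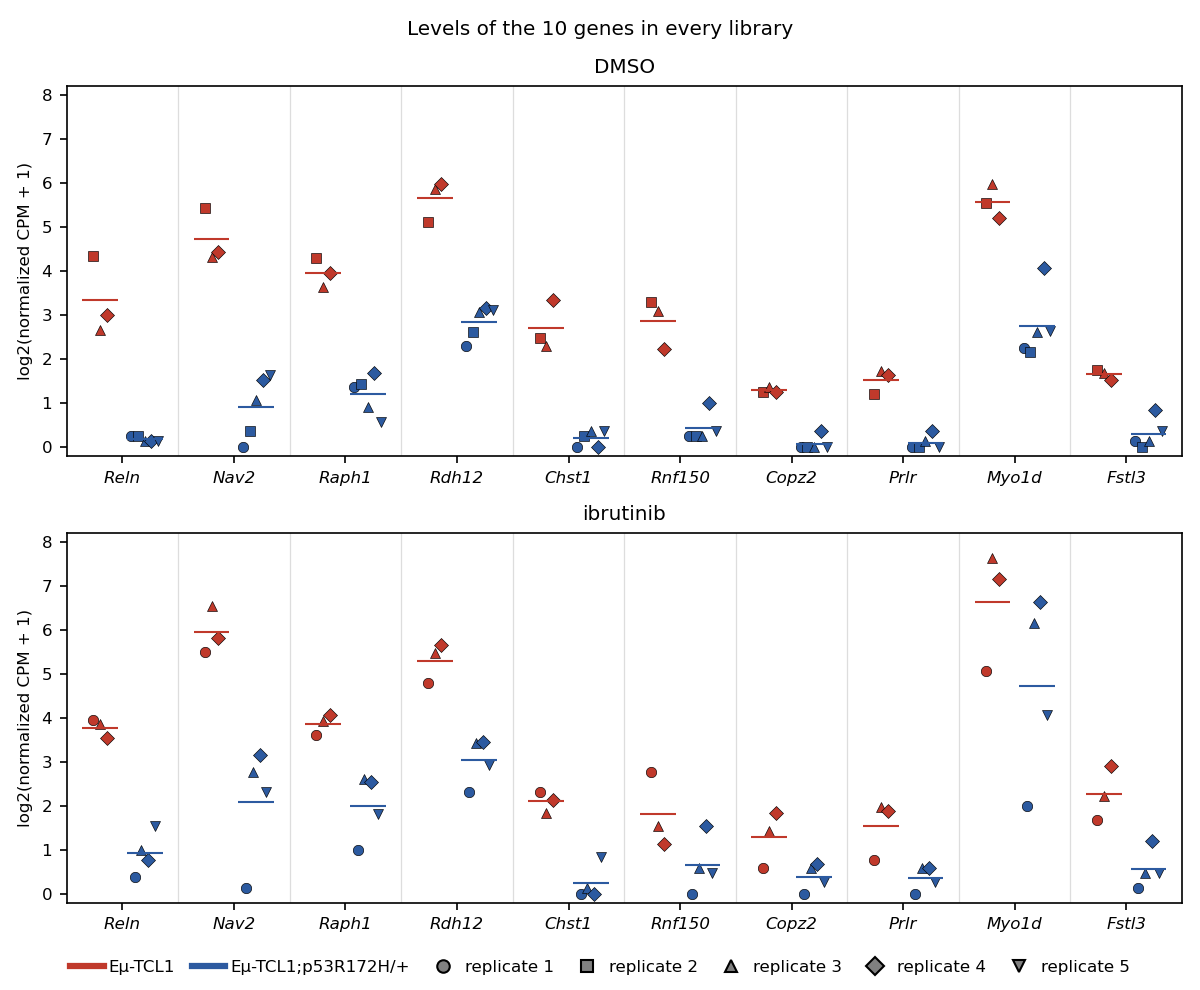
Level of each of the 10 genes in every library as log2(normalized CPM + 1), with DMSO above and ibrutinib below, red for Eμ-TCL1 and blue for Eμ-TCL1;p53R172H/+. Marker shapes give the replicate number and horizontal lines the group means. In DMSO all blue points lie below all red points for every gene, and in ibrutinib the genotypes overlap for Rnf150, Copz2 and Myo1d.

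Among the secreted and receptor genes, Reln had the lowest mutant level relative to Eμ-TCL1. Reln (ENSMUSG00000042453, chr5:21884454-22344702) encodes reelin, a large extracellular glycoprotein that guides neuronal migration through lipoprotein receptors. Its DMSO values were 19.3, 5.3 and 7 in Eμ-TCL1 replicates 2, 3 and 4, and 0.2, 0.2, 0.1, 0.1 and 0.1 in Eμ-TCL1;p53R172H/+ replicates 1 to 5. The mutant mean of 0.14 was 1.33% of the Eμ-TCL1 mean of 10.5 ± 7.64 (SD, n = 3). The 5 mutant libraries were all within 1 rounding step of each other, both those rich in T-cell markers and those rich in B-cell markers. In ibrutinib, Reln was 14.4, 13.4 and 10.6 in Eμ-TCL1 and 0.3, 1, 0.7 and 1.9 in Eμ-TCL1;p53R172H/+. The genotypes stayed far apart, although every mutant value was above those of DMSO. The log2 difference in ibrutinib was -2.86 (SE 0.32, limma, Benjamini-Hochberg adjusted p = 0.103), and the gap between its lowest Eμ-TCL1 and highest mutant log2 value ranked 8th widest among 16428 genes.

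Fstl3 (ENSMUSG00000020325, chr10:79777272-79782630) encodes a secreted follistatin-like protein that binds and blocks activins. It was 2.4, 2.2 and 1.9 in Eμ-TCL1 and 0.1, 0, 0.1, 0.8 and 0.3 in Eμ-TCL1;p53R172H/+ in DMSO. Under ibrutinib Fstl3 was 2.2, 3.7 and 6.5 in Eμ-TCL1 and 0.1, 0.4, 1.3 and 0.4 in Eμ-TCL1;p53R172H/+, again without overlap. Its log2 difference there was -1.70 (SE 0.37, limma, Benjamini-Hochberg adjusted p = 0.222). Its exons share 1157 bases (47.3% of its exonic length) with Prss57 on the opposite strand, a protease gene of the neutrophil lineage, and whether counting used strand is not given in the sources used here. Prss57 was 16.7 and 22.7 in the myeloid-rich Eμ-TCL1 replicate 2 in DMSO and replicate 1 in ibrutinib and at most 0.1 elsewhere, so Fstl3 at 2.2 and 1.9 in Eμ-TCL1 replicates 3 and 4 in DMSO had Prss57 at or near 0 beside it.

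Prlr (ENSMUSG00000005268, chr15:10177238-10349180) encodes the prolactin receptor, a cytokine receptor that signals through Jak2 and Stat5. It was 1.3, 2.3 and 2.1 in Eμ-TCL1 and 0, 0, 0.1, 0.3 and 0 in Eμ-TCL1;p53R172H/+ in DMSO. In ibrutinib the values were 0.7, 2.9 and 2.7 against 0, 0.5, 0.5 and 0.2. Prlr was the only 1 of the 10 genes at or under 0.5 in every Eμ-TCL1;p53R172H/+ library of both treatments. The lowest Eμ-TCL1 value in ibrutinib came from the B-cell-poor replicate 1. The log2 difference of Prlr in ibrutinib was -1.18 (SE 0.34, limma, Benjamini-Hochberg adjusted p = 0.298).

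Of the cytoskeletal genes, Nav2 differed most on the log2 scale in both tables. Nav2 (ENSMUSG00000052512, chr7:48908716-49610090) encodes neuron navigator 2, a microtubule-associated protein of growing axons. It was 42.2, 18.9 and 20.5 in Eμ-TCL1 and 0, 0.3, 1.1, 1.9 and 2.1 in Eμ-TCL1;p53R172H/+ in DMSO. The values of 0 and 0.3 were those of the mutant libraries poor in B-cell markers. In ibrutinib Nav2 was 44.3, 91.2 and 54.9 in Eμ-TCL1 and 0.1, 5.8, 7.9 and 4 in Eμ-TCL1;p53R172H/+. The log2 difference was -3.80 in DMSO and -3.85 in ibrutinib (SE 0.71, limma, Benjamini-Hochberg adjusted p = 0.167), and the gap ranked 3rd among all genes of each table.

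Raph1 (ENSMUSG00000026014, chr1:60482292-60567104) encodes lamellipodin, which brings Ena/VASP proteins to the leading edge of moving cells. In DMSO it was 18.6, 11.5 and 14.4 in Eμ-TCL1 and 1.6, 1.7, 0.9, 2.2 and 0.5 in Eμ-TCL1;p53R172H/+, with no order by B-cell markers within the mutants. Raph1 in ibrutinib was 11.2, 14.2 and 15.7 against 1, 5.1, 4.8 and 2.5. The mutant mean was 9.30% of the Eμ-TCL1 mean in DMSO and 24.5% in ibrutinib. The ibrutinib log2 difference was -1.88 (SE 0.42, limma, Benjamini-Hochberg adjusted p = 0.222).

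Myo1d (ENSMUSG00000035441, chr11:80482126-80780025), a class I myosin that links membranes to actin, had the widest range of levels. In DMSO it was 45.4, 61.5 and 35.6 in Eμ-TCL1 and 3.8, 3.5, 5.1, 15.9 and 5.2 in Eμ-TCL1;p53R172H/+. With ibrutinib the values were 32.6, 197.5 and 140.5 in Eμ-TCL1 and 3, 70.2, 98.3 and 15.6 in Eμ-TCL1;p53R172H/+. Replicates 3 and 4 of the mutant thus lay above Eμ-TCL1 replicate 1, the myeloid-rich library, and below the other two. The log2 difference in ibrutinib was -1.91 (SE 1.18, limma, Benjamini-Hochberg adjusted p = 0.543). Leaving out the mutant replicate 1 moved it to -1.002, and leaving out replicate 1 of Eμ-TCL1 moved it to -2.68. In ibrutinib the mean mutant level of Myo1d stood at percentile 81.3 of all genes, so it was not a silent gene there.

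Among the enzymes, Rdh12 was the most abundant and kept its difference. Rdh12 (ENSMUSG00000021123, chr12:79208914-79222665) encodes a retinol dehydrogenase that reduces retinal in photoreceptors. It was 33.8, 56.8 and 62.4 in Eμ-TCL1 and 3.9, 5.1, 7.4, 7.9 and 7.7 in Eμ-TCL1;p53R172H/+ in DMSO. Rdh12 in ibrutinib was 26.5, 43.3 and 48.9 against 4, 9.8, 10 and 6.6. Within each genotype the libraries poor in B-cell markers had the lowest values, apart from Eμ-TCL1;p53R172H/+ replicate 3 in ibrutinib. Its ibrutinib log2 difference was -2.26 (SE 0.35, limma, Benjamini-Hochberg adjusted p = 0.165).

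Chst1 (ENSMUSG00000027221, chr2:92599707-92615250) encodes a Golgi sulfotransferase that adds sulfate to galactose of keratan sulfate and related chains. It was 4.6, 3.9 and 9.2 in Eμ-TCL1 and 0, 0.2, 0.3, 0 and 0.3 in Eμ-TCL1;p53R172H/+ in DMSO. Chst1 in ibrutinib was 4, 2.6 and 3.4 against 0, 0.1, 0 and 0.8. Replicate 4 of the mutant, the highest for 7 of the 10 genes in each table, was listed at 0 for Chst1 in both. Chst1 had a log2 difference of -1.86 there (SE 0.27, limma, Benjamini-Hochberg adjusted p = 0.165).

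Copz2 (ENSMUSG00000018672, chr11:96849870-96861203) encodes the zeta-2 subunit of the COPI vesicle coat and carries the microRNA gene Mir152 within it. It was 1.4, 1.6 and 1.4 in Eμ-TCL1 and 0, 0, 0, 0.3 and 0 in Eμ-TCL1;p53R172H/+ in DMSO. Copz2 in ibrutinib was 0.5, 1.7 and 2.6 against 0, 0.5, 0.6 and 0.2, and Eμ-TCL1 replicate 1 overlapped the mutants. Its log2 difference there was -0.91 (SE 0.33, limma, Benjamini-Hochberg adjusted p = 0.353).

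Rnf150 (ENSMUSG00000047747, chr8:82863356-83091268) encodes a membrane protein with a RING domain of the ubiquitin ligase type. It was 8.8, 7.5 and 3.7 in Eμ-TCL1 and 0.2, 0.2, 0.2, 1 and 0.3 in Eμ-TCL1;p53R172H/+ in DMSO. Rnf150 in ibrutinib was 5.8, 1.9 and 1.2 against 0, 0.5, 1.9 and 0.4, so that the Eμ-TCL1 libraries rich in B-cell markers met the mutant range. Its log2 difference there was -1.16 (SE 0.49, limma, Benjamini-Hochberg adjusted p = 0.411). It was -0.69 without Eμ-TCL1 replicate 1. The antisense gene Gm45449 shares 782 exonic bases with Rnf150 (4.54% of its length).

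Per kilobase of exon, which allows levels to be compared between genes, Rdh12 led in DMSO-treated Eμ-TCL1 at 17.2 CPM per kb, followed by Myo1d at 7.35 and Chst1 at 2.20. The remaining 7 genes lay between 0.886 for Fstl3 and 0.124 for Prlr. In ibrutinib the order of the first 2 was turned, with Myo1d at 19.1 and Rdh12 at 13.3 CPM per kb in Eμ-TCL1. The spread of Myo1d between those 3 libraries was wide (124 ± 84 CPM, SD, n = 3), and that of Rdh12 was 39.6 ± 11.7 CPM (SD, n = 3), so their order was not separated beyond it.

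The selection rule did not use the ibrutinib values, apart from listing in that table, and all 10 log2 differences there were negative. Genes under 0.5 CPM were filtered out. A gene near 0 in the mutants, such as Prlr, may therefore have been listed only through its Eμ-TCL1 values. For such genes a lower mutant level is partly fixed by the filter. The genotypes did not overlap for 7 of the 10 genes, where 5.97% of all genes were lower without overlap. For each of these 7 the two-sided exact permutation test of the CPM values gave p = 0.0286, the smallest that 35 groupings of 7 libraries allow. The exact permutation p was 0.0857 for Copz2, 0.114 for Rnf150 and 0.171 for Myo1d. None of the 10 passed an adjusted p-value of 0.05 with limma and Benjamini-Hochberg adjustment over 16428 genes (range 0.103 to 0.543), nor did any other gene of that table (0.0% called). At an unadjusted limma p under 0.05, 9 of the 10 (all but Myo1d) were lower, beside 6.32% of all genes. The median log2 difference was -1.87 (-0.05 over all genes) in ibrutinib and -2.63 (0.04 over all genes) in DMSO. With libraries weighted by quality, Reln (adjusted p = 0.0369, limma) and Rdh12 (adjusted p = 0.0489) passed the threshold, and over all alternatives their adjusted p ranged up to 0.501 and 0.549. The ibrutinib libraries may hold cells of mice that also gave DMSO libraries, so they are not a separate set of animals. The genes were also chosen with earlier results of these data known, so the ibrutinib values are not an independent check.

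**Figure D2:**
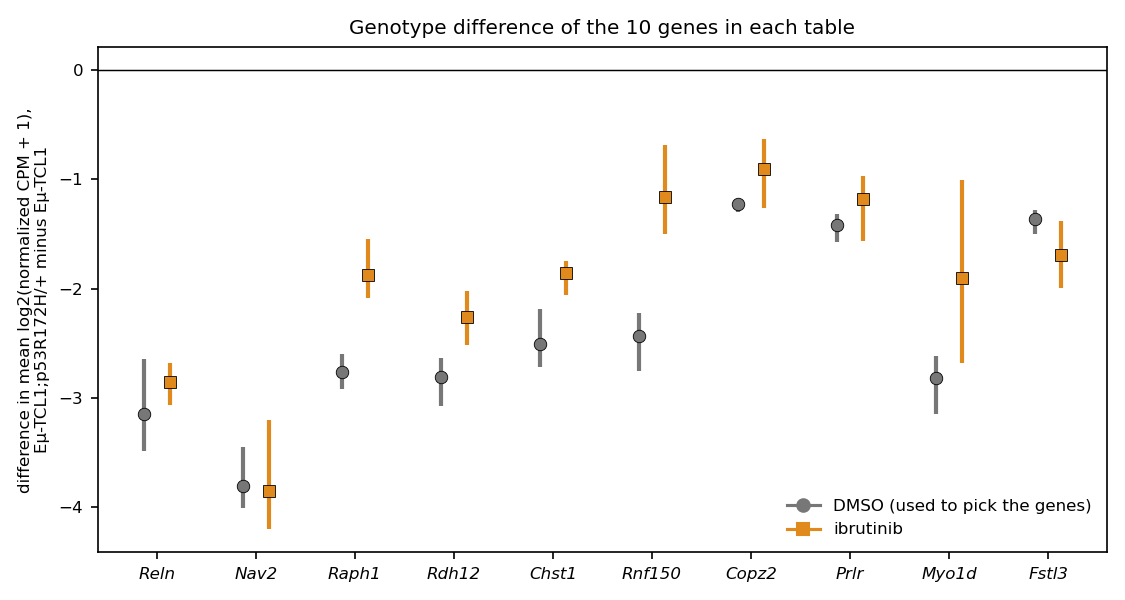
Difference in mean log2(normalized CPM + 1), Eμ-TCL1;p53R172H/+ minus Eμ-TCL1, for each gene in DMSO (grey circles, used to choose the genes) and ibrutinib (orange squares). Bars span the values with each library left out in turn and are not confidence intervals. All points and bars lie below 0, and the ibrutinib bar is widest for Myo1d, from -2.68 to -1.002.

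The levels of the 10 genes were set beside the markers of B-cells and of other cells. In DMSO the 10 genes summed to 177.8 CPM in the B-cell-poor Eμ-TCL1 replicate 2 and to 171.5 and 158.2 in replicates 3 and 4. They summed to 9.8 and 11.2 in the B-cell-poor Eμ-TCL1;p53R172H/+ replicates 1 and 2 and to 15.3, 30.4 and 16.5 in the B-cell-rich replicates 3 to 5, so that within the mutants the B-cell-poor libraries were the lower ones. The median log2 difference in DMSO was -2.46 without mutant replicates 1 and 2, and -2.52 when Eμ-TCL1 replicate 2 was left out as well, the latter a comparison chosen after the values were seen. In ibrutinib the sums were 142.2, 372.4 and 287 in Eμ-TCL1 and 8.5, 93.9, 126 and 32.6 in Eμ-TCL1;p53R172H/+, of which Myo1d alone made 70.2 and 98.3 in mutant replicates 3 and 4. Eμ-TCL1;p53R172H/+ replicate 1, with the fewest B-cell markers, had the lowest mutant value of all 10 genes there, ties counted. Among the ibrutinib libraries with B-cell markers of at least 1000 (Eμ-TCL1 replicates 3 and 4, Eμ-TCL1;p53R172H/+ replicates 4 and 5, a comparison chosen after the values were seen), 9 of the 10 genes did not overlap and the median log2 difference was -1.77. The exception was Rnf150, with a log2 difference of -0.33. In ibrutinib the plasma-cell markers were 72.9, 322.8, 355.5 and 128.3 in mutant replicates 1, 3, 4 and 5. These followed the order of the sums of the 10 genes, and in DMSO both were highest in mutant replicate 4. The Eμ-TCL1 libraries did not keep that order. Their plasma-cell markers in DMSO were 411.2, 265.1 and 623.0, the highest beside the lowest sum of 158.2. In ibrutinib they were 290.3, 356.8 and 557.9, the highest beside 287 and not beside the highest sum of 372.4. The part of B-cell, T-cell, myeloid, plasma-cell and stromal content in the genotype differences was not tested. In bulk RNA, fewer cells of a type and less RNA per cell cannot be told apart.

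**Figure D3:**
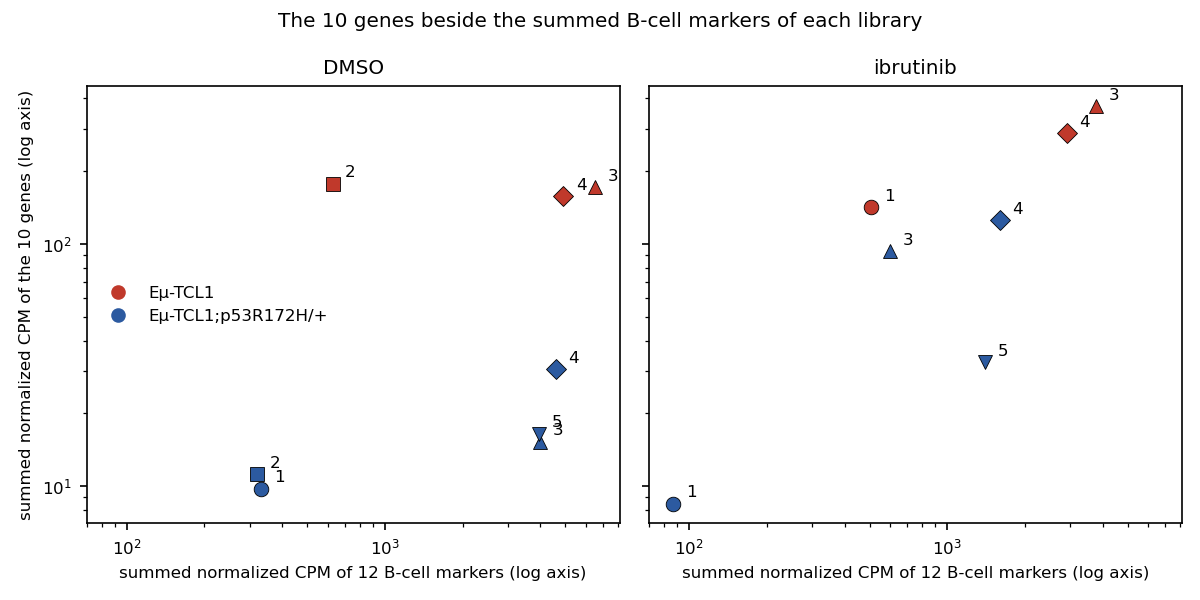
Summed normalized CPM of the 10 genes (vertical, log axis) against summed normalized CPM of 12 B-cell markers (horizontal, log axis) in each library, labelled by replicate number, red for Eμ-TCL1 and blue for Eμ-TCL1;p53R172H/+. In DMSO the Eμ-TCL1 libraries lie between 158.2 and 177.8 at B-cell markers from 627.1 to 6536.2, and the mutants lie between 9.8 and 30.4.

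Relatives and partners of the 10 genes were examined next. Lists of the reelin, prolactin receptor and activin pathways, the COPI coat, class I myosins, lamellipodin partners, retinol enzymes, carbohydrate sulfotransferases, Rnf150-like ligases and neuron navigators held 102 genes besides the members, of which 88 were measured in DMSO and 85 in ibrutinib. None passed an adjusted p-value of 0.05 in either direction in either table. At an unadjusted limma p under 0.05, 4 of 88 were lower and 2 higher in DMSO, beside 4.65% and 3.52% of all genes. In ibrutinib 10 of 85 were lower and 7 higher, beside 6.32% and 5.69% of all genes. Their median log2 difference was -0.15 in DMSO and -0.20 in ibrutinib, beside -2.63 and -1.87 for the members.

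The paralog of Copz2, Copz1, which encodes the zeta-1 subunit, had DMSO levels of 74.6 ± 26.5 in Eμ-TCL1 (SD, n = 3) and 64.6 ± 14.1 in the mutants (SD, n = 5). In ibrutinib it was 51.6 ± 7.40 (SD, n = 3) and 33.8 ± 10.3 (SD, n = 4), with overlap. Per kilobase in DMSO-treated Eμ-TCL1, Copz1 stood at 20.4 and Copz2 at 0.664 CPM per kb, so the zeta-2 transcript was the minor one of the pair. Of the 10 measured genes of the COPI list, 4 were lower in ibrutinib at an unadjusted limma p under 0.05, beside 6.32% of all genes. They were Copz1, Arcn1, Gbf1 (log2 difference -0.61) and the small GTPase gene Arf1 (-0.46). None of the list passed an adjusted p of 0.05, and none had an unadjusted p under 0.05 in DMSO.

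Nav1, the only other navigator measured, was 7.83 ± 10.6 (SD, n = 3) and 2.40 ± 1.26 (SD, n = 5) in DMSO and overlapped in both tables. Of the other class I myosins, Myo1h had the lowest p in ibrutinib, at 7.73 ± 6.01 (SD, n = 3) and 0.725 ± 0.499 (SD, n = 4) without overlap (log2 difference -2.05, limma, Benjamini-Hochberg adjusted p = 0.304). Its DMSO levels were 6.93 ± 4.69 (SD, n = 3) and 1.32 ± 0.259 (SD, n = 5), and 1 of the 7 myosins had an unadjusted p under 0.05 in each table. Enah, an Ena/VASP partner of lamellipodin, was 1.10 ± 0.854 in Eμ-TCL1 (SD, n = 3) and listed at 0 in 4 of 5 mutant libraries in DMSO, and in ibrutinib the genotypes overlapped.

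Of the activin pathway, the receptor gene Acvr1b stood in ibrutinib at 53.2 ± 5.55 in Eμ-TCL1 (SD, n = 3) and 29.1 ± 1.56 in the mutants (SD, n = 4) (log2 difference -0.84, limma, Benjamini-Hochberg adjusted p = 0.165). The inhibitory Smad7 had the opposite sign, at 40.5 ± 10.8 (SD, n = 3) and 98.0 ± 17.4 (SD, n = 4) (log2 difference 1.27, limma, Benjamini-Hochberg adjusted p = 0.165). The signal transducer Smad4 stood at 71.0 ± 4.39 (SD, n = 3) and 108 ± 14.5 (SD, n = 4). Among the receptor partners of Reln and Prlr, the kinase gene Fyn had a log2 difference of 1.73 in ibrutinib, without overlap (limma, Benjamini-Hochberg adjusted p = 0.346). Socs1, Jak2 and Socs2 had 1.43, -0.30 and 0.83 there, each with overlap between genotypes.

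Of the sulfotransferases in ibrutinib, Chst15 was 56.5 ± 14.8 (SD, n = 3) and 19.4 ± 12.4 (SD, n = 4), and Chst12 was 38.4 ± 27.1 (SD, n = 3) and 16.3 ± 2.20 (SD, n = 4), both without overlap and with adjusted limma p-values of 0.400 and 0.396. Of the retinol enzymes, Rdh5 was higher without overlap, at 4.43 ± 0.666 (SD, n = 3) and 7.42 ± 1.48 (SD, n = 4), and Rdh11 had a log2 difference of -0.41 with overlap. Of the ligases, Rnf13 was lower and Znrf3 and Rnf43 were higher, each without overlap, with log2 differences of -0.69, 1.96 and 0.96 in ibrutinib.

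The genes whose profile across the 8 DMSO libraries was most like the mean profile of the 10 (Pearson r of log2 values, among 13386 genes with a mean of at least 1) were Il15 (r = 0.987), Dclk2 (0.980), Igkv12-89 (0.971), Adgrl2 (0.963) and Gm15513 (0.962). These r values describe 8 libraries that share 2 genotypes, and any gene that separates the genotypes in DMSO scores high. Il15, a cytokine gene, stood in ibrutinib at 7.63 ± 7.61 in Eμ-TCL1 (SD, n = 3) and 0.725 ± 0.427 in the mutants (SD, n = 4), without overlap. The doublecortin-like kinase gene Dclk2 was 4.83 ± 1.25 (SD, n = 3) and 1.40 ± 0.938 (SD, n = 4), also without overlap. The kappa variable gene Igkv12-89 was 1037 ± 708 (SD, n = 3) and 4.42 ± 4.52 (SD, n = 4) (variable genes are rearranged clonally in B-cells). Adgrl2 and Gm15513 overlapped in ibrutinib.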

How the data were processed

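RNA was sequenced from 15 libraries of cultured splenic lymphocytes. Per the submitters' processing notes and the study's methods, reads were aligned with TopHat2 2.0.12 and SAMtools 0.1.19, counted per gene with HTSeq on GENCODE M2 (GRCm38), filtered for low values (under 0.5 CPM) and then normalized in edgeR. The authors deposited the result as signal values, CPM scaled separately in each treatment's table and rounded to 0.1. A read is worth less than this step, so whole reads were not recovered, no count test was run and depth is unknown. Levels across tables are set side by side only.

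Genotypes were compared within each table with limma 3.58.1 (R 4.3.3, lmFit, eBayes with a trend) on log2(value + 1), over all genes, calling genes at a Benjamini-Hochberg adjusted p under 0.05. These log2 differences understate the change of low genes. Exact permutation tests were two-sided, on the difference of means. The limma test was checked on data simulated with large differences and the same spread for every gene. The 10 genes differ in spread and many of their values lie near the rounding step, so that check does not extend to them. Gaps between genotypes are the lowest Eμ-TCL1 minus the highest Eμ-TCL1;p53R172H/+ log2 value. Gene positions and exon lengths came from GENCODE M21 (GRCm38). Alternatives were pseudocounts of 0.1 and 5, quantile normalization, a mean of at least 1, quality weights, a replicate block, each library left out, and B-cell-rich libraries only. Named genes were the 10 members, the 3 genes of each list with the lowest ibrutinib p (shown in part) and the 5 most alike profiles; T-cell, NK, myeloid, dendritic, plasma, erythroid and stromal markers were summed per library. The members and lists were chosen with earlier results of these data known.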

Additional observations from a re-analysis of the deposited data

Results flagged for a closer look

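Of 20 groups of 4 or 5 libraries (10 genes in the Eμ-TCL1;p53R172H/+ groups of each table), 4 held a value far from the rest by Dixon's criterion. The usual rate of about 1 group in 20 holds for normally distributed values in independent groups. These values are rounded to 0.1 and the groups share the same libraries, so the count cannot be set against that rate. Of the 4 values, 3 were in Eμ-TCL1;p53R172H/+ replicate 4 in DMSO. Myo1d was 15.9 there and at most 5.2 in the other 4 mutant libraries. Rnf150 was 1 there and at most 0.3 elsewhere. Copz2 was 0.3 there and listed at 0 in the others. In ibrutinib, Chst1 was 0.8 in Eμ-TCL1;p53R172H/+ replicate 5 and at most 0.1 in the other mutant libraries. Copz2, Rnf150 and Chst1 are within a few rounding steps of 0 in these libraries.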

How the results depend on the processing

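No alternative turned the direction of a member. The size of the median log2 difference of the 10 genes followed the pseudocount, being -3.63 in DMSO and -2.48 in ibrutinib with 0.1, and -1.29 and -0.94 with 5. In ibrutinib it was -1.67 with quantile normalization, -1.76 with quality weights and -1.75 with the replicate block. Leaving out each library in turn gave medians from -2.73 to -2.56 in DMSO and from -1.999 to -1.55 in ibrutinib. In those ibrutinib fits 7 to 9 members did not overlap, 7 to 9 had an unadjusted p under 0.05 and 0 passed the adjusted threshold, while the genes called over the whole table ranged from 0 to 24, the highest count being that without Eμ-TCL1 replicate 1; it was 5 when mutant replicate 5 was left out. Quality weights called 28 genes, 2 of them members (Reln and Rdh12). Same-numbered libraries of the genotypes share only a number, their deviations correlating between -0.17 and 0.25, and with the replicate block 0 members were called and 9 had an unadjusted p under 0.05. Copz2 was removed by the minimum mean of 1. Rounding to 0.1 limits all values near 0.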
